A study of Homo sapiens with 4 samples.

Results

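The 5 genes described here encode the core machinery that makes microRNAs: DROSHA, DGCR8, XPO5, DICER1 and TARBP2. The series holds Argonaute (AGO1 and AGO2) precipitations and 1 deposited list of regions. Regions were taken wherever they overlapped the hg19 interval of 1 of these genes by at least 1 nt on the gene's own strand. This gave 165 of the 211947 regions in the list, 0.0778% of its regions and 0.0918% of its summed score. DICER1 held 67 of them, DGCR8 32, DROSHA 29, XPO5 29 and TARBP2 8.

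A microRNA is cut from a longer transcript in steps. DROSHA, a nuclear ribonuclease, and DGCR8, its double-stranded RNA-binding partner, release a hairpin from the primary transcript, and XPO5 (exportin-5) carries the hairpin out of the nucleus. DICER1 cuts the hairpin to a short duplex with the help of its partner TARBP2 (TRBP), and 1 strand is loaded into an Argonaute protein, which it guides to matching sites in other RNAs. The messenger RNAs of these enzymes can themselves be targets: DICER1 is a known target of let-7 and of the related miR-103a and miR-107. The mRNA of DGCR8 is known to carry hairpins that DROSHA and DGCR8 cut.

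The assay was PAR-CLIP on 4 libraries of the human embryonic kidney line HEK293. In PAR-CLIP, living cells take up a photoreactive uridine, ultraviolet light crosslinks RNA to the protein, and the RNA that comes down with the protein is sequenced. For the 3 AGO1 libraries, lines stably expressing a His/FLAG/HA-tagged protein received 200 µM 4-thiouridine, and the antibody was to FLAG. For the 1 AGO2 library the dose was 100 µM and the antibody recognised AGO2. This library's own labels name no tag, although the series text speaks of tagged lines for both proteins. Labelling lasted 16 h and crosslinking was at 365 nm in every library. No untreated or control library was among the samples. The list has 1 score per region, and its header names a library set, AGO_good, but no single library. Which of the 4 libraries went into it is not stated. AGO1 could therefore not be set against AGO2, read depth is unknown, values below have no replicate error, and no test between genes was made. The score is a whole number from 1 to 1000 whose unit is not stated. Levels of the 5 RNAs were not measured, so more RNA and denser binding cannot be told apart.

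Mature microRNA sequences are shown for 2 reasons: some are encoded inside the 5 genes, and the others are known to act on DICER1. RefSeq (GRCh38.p14) lists all 5 genes as protein-coding and places 3 microRNA genes within them on the host's strand, MIR3173 in DICER1 and MIR3618 and MIR1306 in DGCR8. Capitals mark the seed, bases 2 to 8, by which a microRNA mainly recognises its targets, and each sequence runs 5′ to 3′.
hsa-miR-3173-5p: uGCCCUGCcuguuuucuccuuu
hsa-miR-3173-3p: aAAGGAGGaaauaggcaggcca
hsa-miR-3618: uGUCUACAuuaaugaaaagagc
hsa-miR-1306-5p: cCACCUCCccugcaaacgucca
hsa-miR-1306-3p: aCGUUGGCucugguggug
hsa-let-7a-5p: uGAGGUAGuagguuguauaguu
hsa-miR-103a-3p: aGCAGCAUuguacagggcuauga
hsa-miR-107: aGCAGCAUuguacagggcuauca
The last pair share the seed GCAGCAU. The other seeds in this set differ from it and from each other. The microRNA genes are placed on another build than the list, so which regions lie on the hairpins was not analysed here. No genome sequence of the list's build was at hand, so seed matches in the regions were not searched. Whether a region lies in an exon, an intron or a UTR was likewise not analysed, and places are given as distances from the ends of each gene's interval.

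DICER1 carried most of the signal of the 5 genes. Its 67 regions had a summed score of 730, which was 68.5% of the summed score of all 165. DGCR8 followed with a summed score of 118, DROSHA with 95, XPO5 with 86 and TARBP2 with 36. Without the top 3 regions of each gene, DICER1 still came first with a summed score of 439, while DROSHA (59) fell behind XPO5 (66). Per kb of gene interval the order changed. TARBP2, the shortest gene at 5511 nt, had 1.45 regions per kb, DGCR8 1.01, DICER1 0.933, XPO5 0.540 and DROSHA, the longest at 131682 nt, 0.220. Summed score per kb put DICER1 first again with 10.2, followed by TARBP2 with 6.53, DGCR8 with 3.73, XPO5 with 1.60 and DROSHA with 0.721. DICER1 and DROSHA thus stood at opposite ends of the scale of score per kb. Densities here and below are per kb of genomic interval, introns included, and were not corrected for the length of exons.

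**Figure D1:**
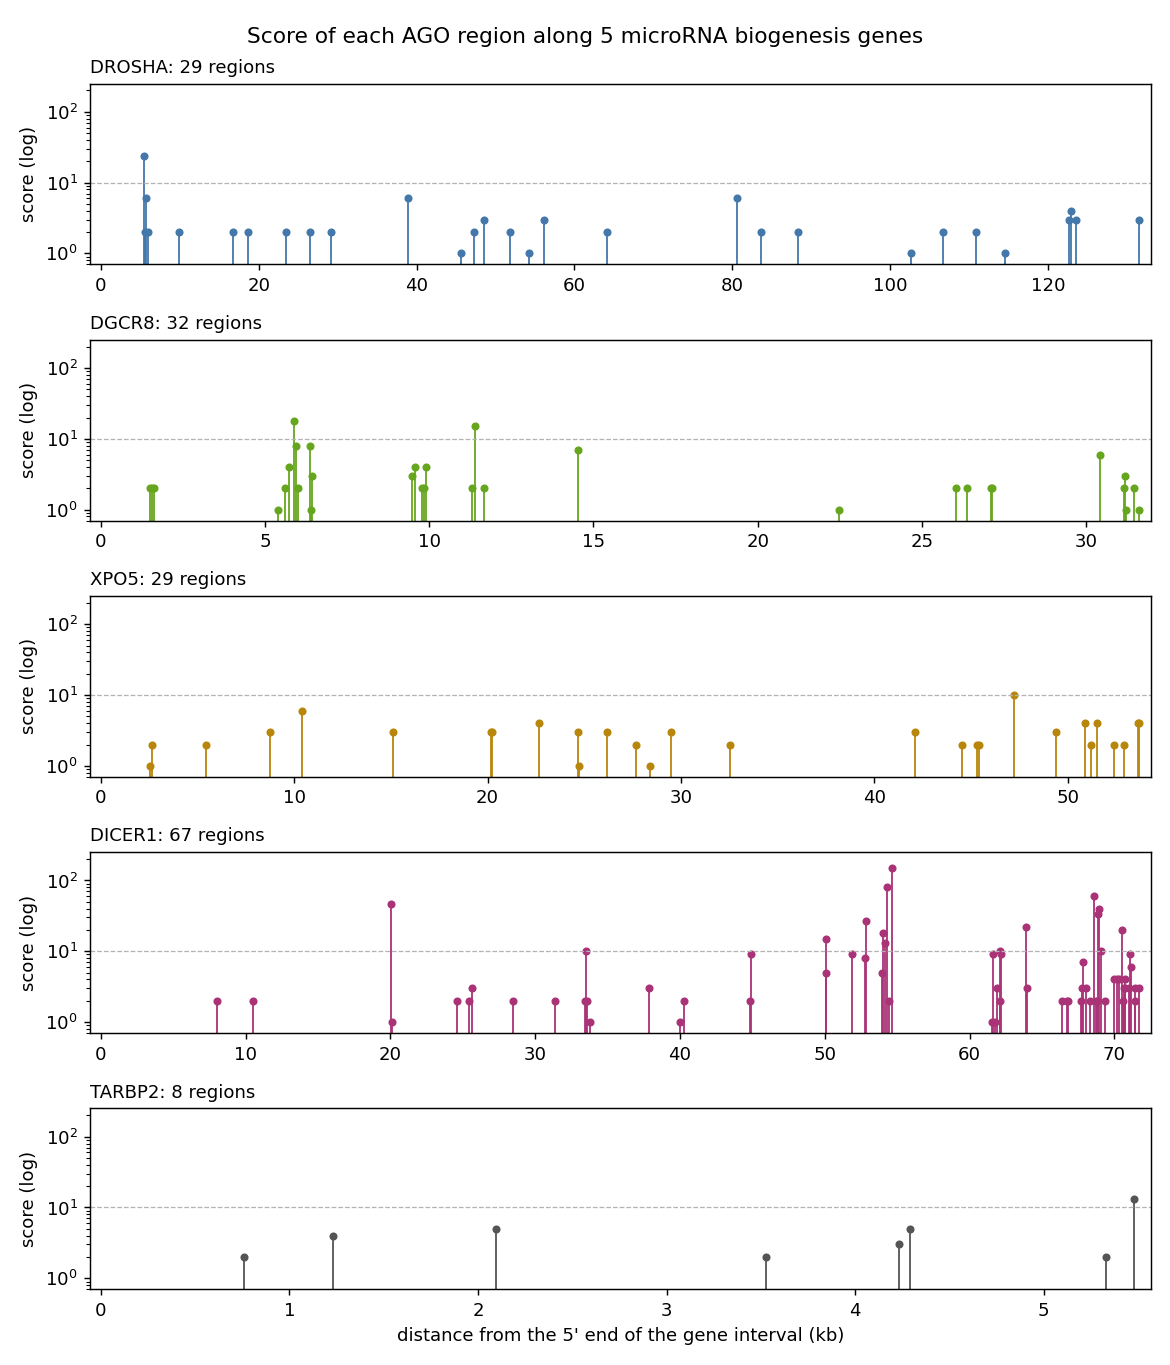
Each point is 1 region: the horizontal axis is its distance from the 5′ end of the gene interval in kb (a different scale in each panel), the vertical axis its score on a log scale, and the dashed line a score of 10. DICER1 has 15 regions at or above the line, mostly toward its 3′ end, and the other 4 genes have 1 or 2 each.

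Strong regions were gathered in DICER1. Of all regions in the list, 11.0% scored 10 or more, and of the 165 in the 5 genes 20 did (12.1%, Wilson 95% interval 7.99 to 18.0), so the set as a whole lay near the background. Within it, 15 of the 20 were in DICER1, where they made up 22.4% of its regions (14.1 to 33.7). DGCR8 had 2, and DROSHA, XPO5 and TARBP2 had 1 each, together 5 of 98 regions (5.10%, 2.20 to 11.4). A score of 50 or more was seen in 0.945% of the list and in 3 of the 165 regions (1.82%, 0.620 to 5.21). All 3 were in DICER1 (4.48% of its regions, 1.53 to 12.4). None of the 98 regions in the other 4 genes had such a score (0 to 3.77), an interval that holds the share of the list. Wilson intervals here cover counting error only, and regions of 1 transcript are not independent of each other. The median score was 3 in DICER1, 3 in XPO5, 3.5 in TARBP2 and 2 in DROSHA and DGCR8, against 3 in the list. DICER1 thus had more strong regions, while its median score was that of the list.

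The opposite strand of the 5 intervals, which the selection did not use, held 2 regions in all. The first, with a score of 17, lay in DICER1, 262 nt from its 5′ end, and RefSeq lists an antisense RNA, DICER1-AS1, overlapping DICER1. The second, with a score of 1, lay in XPO5, which RefSeq shows overlapping POLR1C, a gene of the opposite strand. No opposite-strand region was found in TARBP2. RefSeq lists MAP3K12 as overlapping TARBP2 on that strand, but whether it reaches into the hg19 interval used here was not analysed.

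Regions were also counted in flanks of the same length as each gene, on the same strand. Such flanks can hold other genes, so they are not a background free of transcripts. DROSHA had 29 regions in its interval and 0 in either flank, and the nearest region outside lay 230070 nt before its 5′ end and 405216 nt after its 3′ end. TARBP2 had 8 inside and 0 in either flank. DICER1 had 67 inside, 13 in the flank before its 5′ end and 1 in the flank after its 3′ end. The flanks of DGCR8 and XPO5 were fuller. DGCR8 had 32 inside, 3 before and 16 after. XPO5 had 29 inside, 19 before and 15 after, with summed scores of 145 and 91 in its flanks against 86 inside. RefSeq lists a same-strand protein-coding gene as the next neighbour on the 3′ side of DICER1 (GSC) and XPO5 (YIPF3). On the 5′ side such a gene is next to DGCR8 (TANGO2) and TARBP2 (PCBP2). For the next gene before the 5′ end of DICER1 (CLMN) no strand was at hand. The same holds for the next gene after the 3′ end of DGCR8 (TRMT2A) and of DROSHA (CDH6). Whether these genes lie in the flanks, and which flank regions belong to them, was not analysed here. Extending the intervals by 1000 nt at both ends added no region to any of the 5 genes. None of the 165 regions was more than 10000 nt from another on its strand, which 8.32% of the list were. The selection of whole gene intervals partly fixed this: TARBP2, with 8 regions in 5511 nt, could hold no such region.

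**Figure D2:**
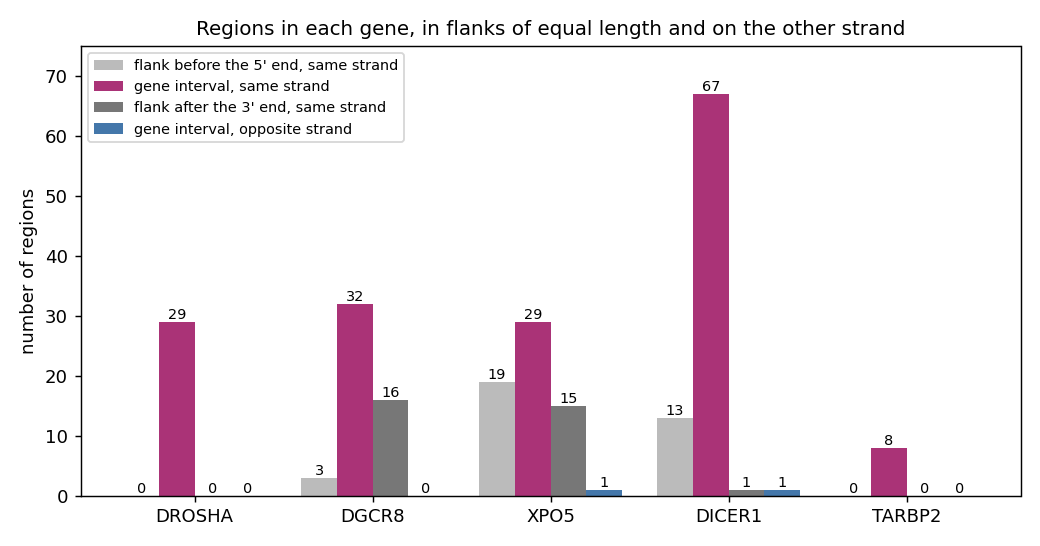
Bars give the number of regions in each gene interval, in same-strand flanks of equal length on either side, and on the opposite strand of the interval. DROSHA and TARBP2 have 0 in both flanks, while the flanks of XPO5 hold 19 and 15 regions beside its own 29.

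DROSHA, which makes the nuclear cut, had mostly weak regions scattered along much of its length. Of its 29 regions, 22 had no other region on the same strand within 1000 nt (75.9%, Wilson 95% interval 57.9 to 87.8), against 22.8% of the list, and the median distance to the nearest one was 2328 nt. A score of 2 was given to 15 of the 29 (51.7%, 34.4 to 68.6), against 35.3% of the list, and a score of 1 to 4 more. The last 5000 nt at the 3′ end held 1 region, of score 3, and the first 5000 nt held none. Apart from 3 regions of scores 3 and 4 about 8 kb from the 3′ end (31408720 to 31409633), the exception to the scatter lay near the 5′ end. There, 4 regions fell within 578 nt on chromosome 5 (31526339 to 31526916) and held 35.8% of the gene's summed score. The strongest region of DROSHA was among them, 79 nt wide with a score of 24, at 31526838 to 31526916, 5366 nt from the 5′ end. It was also the region closest to that end. The next highest DROSHA regions had a score of 6, which 21.5% of the list reached. They lay at 31451684 to 31451723, at 31493320 to 31493347 and, within the group near the 5′ end, at 31526499 to 31526549.

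DGCR8, the partner of DROSHA, showed the opposite spacing: 23 of its 32 regions had a same-strand neighbour within 100 nt (71.9%, 54.6 to 84.4), against 53.4% of the list. They fell into 8 runs, a run being regions with at most 1000 nt between 1 and the next. The run with most regions lay toward the 5′ end, on chromosome 22 from 20073139 to 20074211, 5384 nt from that end. It had 9 regions and 39.8% of the gene's summed score, and with regions of score 3 or more alone the longest run had 5. Its strongest region, and the strongest of DGCR8, was 63 nt wide with a score of 18 (20073595 to 20073657). A region 72 nt wide with a score of 8, a score that 1 other region of the run shared, followed after 3 nt (20073661 to 20073732). RefSeq places MIR3618 and MIR1306 inside DGCR8, but whether regions of this run lie on their hairpins was not analysed here.

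The other strong DGCR8 region, with a score of 15 and a width of 36 nt, lay 11361 nt from the 5′ end (20079116 to 20079151). After a single region of score 7 at 20082250 to 20082294, 7931 nt passed without any region, 25.1% of the gene. A further run of 6 regions ended 12 nt from the 3′ end, with a highest score of 6. The last 5000 nt held 8 of the 32 regions (Wilson 95% interval 13.3 to 42.1%) in 15.8% of the length, and their median score was 2. In DGCR8, then, the higher scores lay in the 5′ part and not at the 3′ end.

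XPO5, the export factor, had the lowest top score of the 5 genes. Its highest score was 10, for a region of 40 nt on chromosome 6 (43496566 to 43496605), 6494 nt from the 3′ end. The next was a score of 6 at 43533396 to 43533442, 10370 nt from the 5′ end, and 5 regions then tied at a score of 4. Of the 29 regions, 11 had no same-strand neighbour within 1000 nt (37.9%, 22.7 to 56.0), an interval that reaches down to the 22.8% of the list. The run with most regions held 7, spanned 2840 nt and ended 33 nt from the 3′ end (43490105 to 43492944), with scores of 2 to 4. The longest run of XPO5 had 3 regions with a gap of at most 500 nt, and 2 with regions of score 3 or more alone. The last 5000 nt held 8 regions (27.6%, 14.7 to 45.7) in 9.30% of the length, or 1.60 per kb against 0.431 per kb in the rest of the gene. XPO5 thus had more regions per kb near its 3′ end than elsewhere, all of low score. Regions of another gene's RNA on the same strand could not be separated, and the nearest region beyond the 3′ end lay 1807 nt away.

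**Figure D3:**
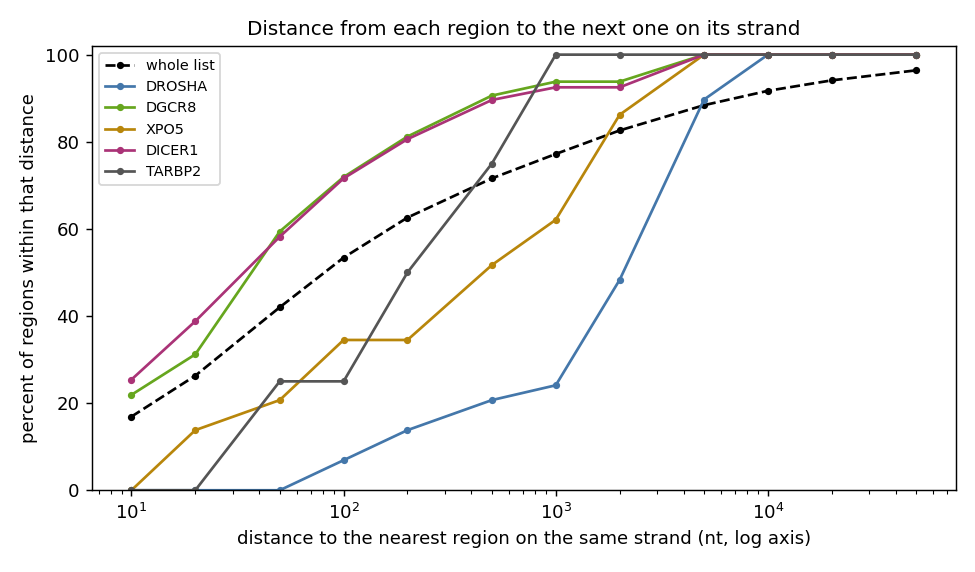
Lines give, for each gene and for the whole list (dashed), the percent of regions whose nearest same-strand region lies within the distance on the horizontal log axis, in nt. At 100 nt DICER1 (71.6%) and DGCR8 (71.9%) lie above the list (53.4%), and XPO5 (34.5%), TARBP2 (2 of 8 regions) and DROSHA (6.90%) below it.

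DICER1, which makes the cytoplasmic cut, had regions in 16 runs, and the largest lay at the 3′ end. This run of 29 regions spanned 5336 nt of chromosome 14 (95552628 to 95557963) and ended 63 nt from the 3′ end of the gene. Among the 76044 runs of the list, 676 (0.889%) had as many regions or more. Of the 9094 runs with at least 5 regions, 6.66% reached its summed score of 243 and 60.9% its median score of 3. With a gap of at most 500 nt the longest run of DICER1 had 14 regions, and with regions of score 3 or more alone it had 19. The last 5000 nt alone held 27 of the 67 regions (40.3%, 29.4 to 52.3) in 6.97% of the length. That is 5.40 regions per kb, against 0.599 per kb in the rest of DICER1. Across the list, 0.731% of the 66169 strand-specific windows of 5000 nt with any region held at least 27. The corresponding last 5000 nt of DGCR8, XPO5 and TARBP2 held 8 regions each, a number reached by 10.1% of such windows, and that of DROSHA held 1. In TARBP2 this stretch was 90.7% of the gene and held all its regions. The windows form a fixed grid counted by region midpoint, whereas each gene's stretch begins at its 3′ end. The median window held 1 region, and the 3′ ends of genes other than these 5 were not compared.

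Most of the terminal score of DICER1 sat in a short part of this run. Joining regions across gaps of at most 100 nt, a rule added after the values were seen, gave 6 regions in 602 nt (95555225 to 95555826) with a summed score of 148, which was 20.3% of the gene's. From the 3′ end upward their scores were 10, 40, 34, 2, 2 and 60. The region with a score of 60 was the third strongest of DICER1 and the widest of all 165, at 179 nt (95555648 to 95555826), 3083 nt from the 3′ end. Closer to the end, the strongest was a region of 72 nt with a score of 20 (95553758 to 95553829). The other regions of the run stayed below 10.

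The strongest stretch of DICER1 lay farther inside the gene. On chromosome 14 from 95569683 to 95570421, 17118 nt from the 3′ end, 6 regions in 739 nt had a summed score of 269, or 36.8% of the gene's. From the 3′ side upward their scores were 149, 2, 82, 13, 18 and 5. The region with a score of 149, the highest in any of the 5 genes, was 104 nt wide (95569683 to 95569786), and 0.126% of the list scored as high. The region with a score of 82 was 177 nt wide (95569953 to 95570129), and 0.390% of the list reached that score. The median score of the 6 was 15.5. Of the 9094 runs in the list with at least 5 regions, 5.52% had a summed score as high, and 50 (0.550%) had a median that high. The median of such medians was 3. This short run thus had a larger summed score than the 29-region run at the 3′ end, which had 243.

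Smaller groups lay on either side of the strong run. Between the strong run and the 3′ end lay a run of 7 regions (95562162 to 95562780) with a highest score of 10 and a pair with a highest score of 22 (95560322 to 95560473). On the 5′ side of the strong run followed regions with scores of 27 (95571483 to 95571530, 48 nt wide) and 15 (95574256 to 95574285, 30 nt wide). The first 5000 nt of DICER1 held no region, and the region closest to the 5′ end lay 8021 nt from it. The tenth of the gene next to the 3′ end held 29 regions, and the tenth at the 5′ end none.

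**Figure D4:**
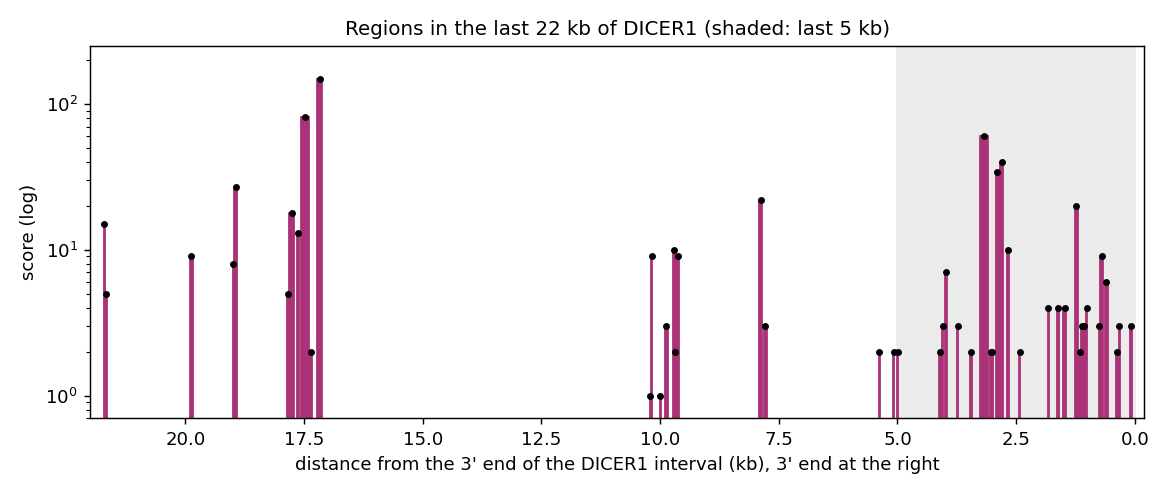
Bars mark the regions in the last part of DICER1 by their distance from the 3′ end in kb (3′ end at the right), with bar width to scale and the score on a log axis. The shaded last 5 kb holds 27 regions with a highest score of 60, and the taller group at 17 kb holds the scores of 149 and 82.

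A region with a score of 10 lay farther toward the 5′ end, 50 nt wide (95590800 to 95590849). The last of the 15 DICER1 regions with a score of at least 10 was narrow for its score. On chromosome 14 at 95604296 to 95604320, 20027 nt from the 5′ end, a region of 25 nt had a score of 46, the fourth highest of the gene. A region of 24 nt with a score of 1 lay 14 nt away (95604258 to 95604281), and beyond this pair no region was found for 9522 nt on the 5′ side. Among the 1465 regions of the list with scores of 40 to 60, the median region was 79 nt wide (quartiles at 49 and 118 nt), and 18 (1.23%, Wilson 95% interval 0.779 to 1.93) were 25 nt wide or narrower. The other 2 DICER1 regions with such scores were 74 and 179 nt wide. RefSeq places MIR3173 inside DICER1, but whether this pair lies on its hairpin was not analysed here.

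TARBP2, the partner of DICER1, had 8 regions in its short interval on chromosome 12. The strongest was 55 nt wide with a score of 13 and ended 3 nt from the 3′ end (53900158 to 53900212). It held 36.1% of the gene's summed score. The next 2 had a score of 5, at 53896787 to 53896810 and 53898981 to 53899011, and the other 5 had scores of 2 to 4. No TARBP2 region had a score of 1, which 14.1% of the list had. The last 2000 nt held 5 of the 8 regions. With 8 regions, shares of this gene carry wide intervals: a share of 12.5% (1 region) had a Wilson 95% interval of 2.24 to 47.1.

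Wider regions tended to have higher scores. Across the 165 regions Spearman's rho of width and score was 0.435, and across the list it was 0.453. It was 0.506 in DICER1, 0.413 in DGCR8, 0.295 in DROSHA, 0.285 in XPO5 and 0.179 over the 8 regions of TARBP2. These are descriptions, without intervals, across regions that share libraries and transcripts, and a difference in rho between genes was not tested. The median width was 36 nt in DICER1, 30 nt in DGCR8 and XPO5 and 28 nt in DROSHA and TARBP2, against 32 nt in the list. A width of at least 50 nt was reached by 17 of the 67 DICER1 regions (25.4%, 16.5 to 36.9), against 16.8% of the list, and by 9 of the 98 in the other 4 genes (9.18%, 4.91 to 16.5).

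**Figure D5:**
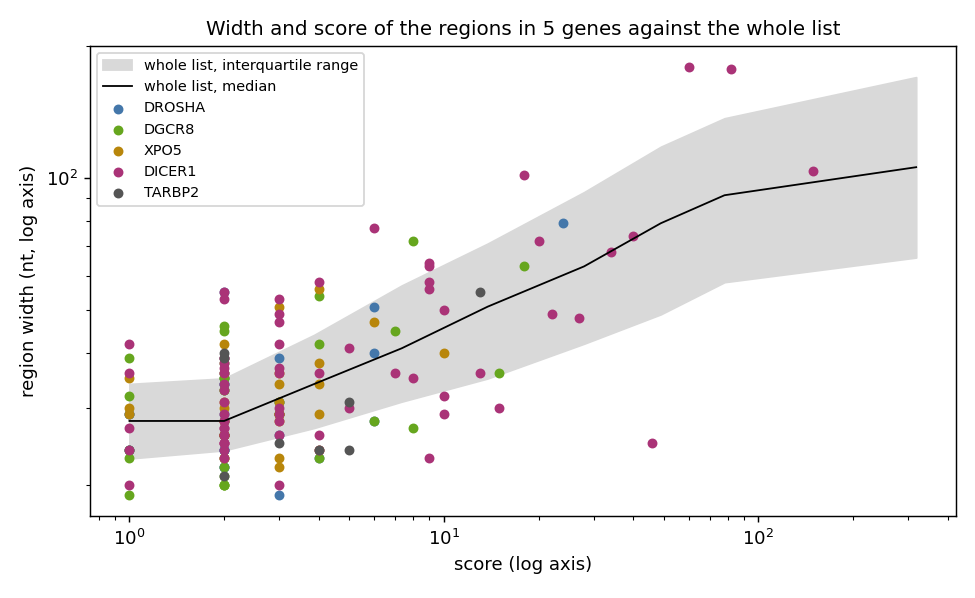
Points are the 165 regions by score and width (nt), both on log axes, coloured by gene. The line and grey band are the median and interquartile range of the whole list by score class, and the DICER1 region with a score of 46 and a width of 25 nt lies below the band.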

How the data were processed

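The series has 4 HEK293 PAR-CLIP libraries and 1 list of regions, which was used as the authors deposited it. Per the file headers, positions are on hg19, the library set is called AGO_good and the filter's name holds the value 0.05. BWA 0.5.8c is named in the submitters' processing notes. How regions were called, and from which libraries, is not stated in the labels or headers. The score per region, as deposited, was used unchanged.

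Gene intervals came from the selection rule. Starts are printed counting from 1. Regions, their neighbours (edge to edge), runs (gaps of at most 1000 nt) and stretches of 5000 nt were counted with Python 3.11.15, numpy 2.4.6, pandas 2.3.3 and scipy 1.17.1, and drawn with matplotlib 3.10.9. A region counted toward a terminal stretch by its nearer edge. In each gene the 3 regions of highest score and the run with most regions were named by rule. Other regions, the windows and the width classes were chosen after their values were seen. The counting functions were tested on simulated data, where 3 of 3 measures were recovered. RefSeq tables (GRCh38.p14) gave names, neighbours and microRNA sequences, and no coordinate. The genes and measures were chosen with earlier results of these data known. Other pathway genes were not analysed here.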

Additional observations from a re-analysis of the deposited data

How the results depend on the processing

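No paired analysis was possible because the list has 1 score per region and no value per library. For 20 results, 59 of 60 other settings were run. A 10000-nt window could not be set in TARBP2, which is shorter. In 42 the value stayed within 1.5 times, or within its Wilson 95% interval for a share, and in 17 it moved further. Regions of score 3 or more alone, which are fewer by construction, numbered 40 in DICER1, 12 in DGCR8, 10 in DROSHA, 16 in XPO5 and 5 in TARBP2. With them the run with most regions had 19 regions in DICER1, 5 in DGCR8 and 2 in XPO5, and the summed score of DROSHA was 61. The summed score of DICER1 was 430 with scores above 20 set to 20, still the highest of the 5 genes. The share of regions at the 3′ end moved with the window: in DICER1 it was 20.9% in 2000 nt and 53.7% in 10000 nt, and in 2000 nt it was 13.8% in XPO5 and 62.5% in TARBP2. With a run gap of 500 nt the run with most regions had 14 regions in DICER1 and 3 in XPO5, and with 2000 nt it had 8 in TARBP2. The share of DICER1 regions in the last 5000 nt was 47.5% at scores of 3 or more. Unknown depth and the lack of values per library limit every count given here.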

Other observations

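The list also gives a 1-nt position inside each region, which the results above did not use. On a scale from 0 at the 5′ edge to 1 at the 3′ edge, its mean was 0.610 ± 0.192 (SD over 67 regions) in DICER1, 0.581 ± 0.167 (29) in XPO5 and 0.559 ± 0.229 (29) in DROSHA. All 3 genes lie on the minus strand, where the mean over the list was 0.585. In the plus-strand genes it was 0.443 ± 0.198 (32) in DGCR8 and 0.506 ± 0.160 (8) in TARBP2, and the mean over the plus strand of the list was 0.454.

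The longest stretch without a region inside a gene was 16357 nt in DROSHA (31451724 to 31468080), 12.4% of its length. In TARBP2 the longest was 1399 nt, 25.4% of its length.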
